A study of Homo sapiens with 4 samples.

Results

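The step from 2 h to 4 h of estrogen exposure was followed in single Ishikawa cells, an established human line from an endometrial adenocarcinoma that carries estrogen receptor alpha. The members were the Ishikawa cells whose tag called them to the 2 h or the 4 h culture and that had 8500 to 35000 unique molecular identifiers (UMIs, each marking 1 captured transcript), 2700 to 6000 detected genes and under 7% of UMIs from mitochondrially encoded genes. These were 1480 cells at 2 h and 892 at 4 h, 2372 of the 4613 Ishikawa cells kept at all 4 times and of the 33173 barcodes in the matrices of both lines. Both cultures were kept for 5 days in phenol red-free medium with charcoal-stripped serum, which lacks most steroid hormone, and then received 10 nM 17β-estradiol (E2). The vehicle (DMSO) culture taken as 0 h was not used. The 8 h Ishikawa culture and the 2 h and 4 h cultures of T-47D, a breast carcinoma line, are given only beside the values of this step.

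Estradiol enters the cell, binds the estrogen receptor and brings it to estrogen response elements and to sites held by partner factors, where coactivators raise transcription. Genes that respond directly change within the first hours, often with a short burst of immediate-early transcription factors, and products of these genes act on later ones. In the endometrium the hormone drives growth of the epithelium, with metabolic, ribosome-building and cell cycle genes among those known to follow.

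Each culture was labelled in the cell membrane with its own DNA tag before the cells of a line were mixed into 1 library. The tags are shown because they alone assign a cell to its time point:

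2 h: GCAGCGTA
4 h: CATGCCTA

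They differ at 4 of 8 positions. In T-47D the same tags were used the other way round, so that the tag of 2 h in Ishikawa marked 4 h in T-47D. Of 14985 barcodes in the Ishikawa matrix, 1906 carried more than 1 tag and 4002 had no call, and none of these were used.

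There was 1 culture per time point, so no test of the step was possible and no p-value is given. No culture without E2 was taken at 2 h or 4 h, so exposure to E2 and time in culture cannot be told apart. The summed counts were 28917798 UMIs at 2 h and 18595798 at 4 h without the reporter features. Median UMIs per cell were 19616.5 and 21435.5, median genes 4407 and 4586, and median mitochondrial shares 4.27% and 3.98%. The limits kept 55.8% (95% exact binomial interval 53.9 to 57.7) of the called cells at 2 h and 52.4% (50.03 to 54.8) at 4 h. Of the endometrial markers, PAX8 was at 124.8 and 98.0 CPM (counts scaled to a pool total of 1000000 UMIs), SOX17 at 57.4 and 55.4 and EMX2 at 137.6 and 105.8. The summed level of 10 blood and immune markers was 2.46 and 3.39 CPM and that of 6 endothelial markers 7.30 and 7.21 CPM. Of 12 breast luminal markers 5 were at 0 at 2 h and 7 at 4 h, with a summed level of 39.9 and 33.9 CPM.

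The pools were close to each other. 7967 genes had 10 CPM or more on average in both pools together. Their median change was 0.02 on the log2(CPM + 1) scale, on which all changes below are given, and 96.9% of them lay within 0.32 of no change, called the lower threshold below. 11 genes were at least 1.5-fold higher at 4 h (0.138% of those compared) and 14 were at least 1.5-fold lower (0.176%). At the lower threshold the counts were 118 higher (1.48%) and 126 lower (1.58%). The higher genes included growth- and stress-induced genes (CTGF, EGR1, HSPA6, GDF15, SGK1), short-chain dehydrogenases (DHRS2, DHRS3) and a secreted protease inhibitor (CST6). Among the lower were a secretoglobin (SCGB2A1), the antiproliferative factor TOB1 and transcription factors (ELF3, FOXS1). Intervals of CPM and of ratios are exact Poisson and exact conditional binomial intervals at 95% and cover counting error only, not the difference between cultures.

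**Figure D1:**
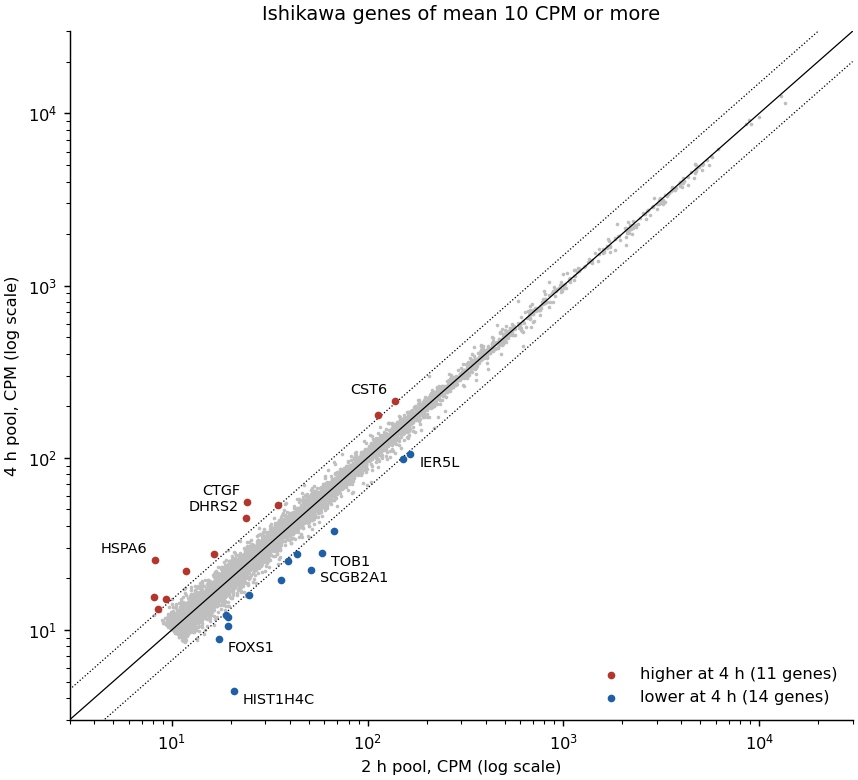
Each point is 1 of 7967 genes, with its CPM in the 2 h pool on the x axis and in the 4 h pool on the y axis, both on log scales. The solid line marks equal levels and the dotted lines 1.5-fold; the 11 red points lie above and the 14 blue points below, mostly among genes under 100 CPM.

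CTGF (CCN2), a secreted matrix-associated protein and a textbook target of the YAP and TEAD growth regulators, had 24.2 CPM at 2 h (22.5 to 26.1) and 55.0 at 4 h (51.7 to 58.5), a ratio of 2.27 (2.06 to 2.502). The share of cells with a CTGF UMI went from 11.4% (9.73 to 13.2) to 20.8% (18.1 to 23.7), after every cell had been thinned to 11833 UMIs. 1316 cells at 2 h and 818 at 4 h were deep enough for this. Every share of cells below is thinned in this way unless stated. CTGF stayed at 56.6 CPM at 8 h. EGR1, a zinc finger factor switched on within minutes by growth signals, had 11.8 CPM (10.6 to 13.1) and 21.9 CPM (19.9 to 24.2) and went on to 38.4 at 8 h. Its share of cells was 10.4% and 17.7%. In cells with 10% or more of their UMIs from GFP, a reporter feature of the Ishikawa matrix left out of all levels, CTGF was at 73.6 and 76.2 CPM and EGR1 at 21.3 and 17.1 CPM, with intervals of the ratio that include 1. The changes were 1.65 for CTGF and 1.11 for EGR1 in cells with 1 to 10% GFP and 1.13 and 0.89 in those with 0.1 to 1%. In the 83 and 44 cells under 0.1% they were 0.47 and 0.59, again with intervals of the ratio that include 1, so the changes did not follow the GFP share in 1 direction. The part of GFP in these differences was not tested.

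HSPA6, an inducible member of the HSP70 chaperone family that is nearly silent without stress, had the highest change of all, 1.52, from 8.20 CPM at 2 h (7.19 to 9.31) to 25.4 at 4 h (23.2 to 27.8), and 16.9 at 8 h. It was carried by few cells, 2.13% (1.42 to 3.06) and 3.91% (2.69 to 5.48). The 10 cells with the most HSPA6 held 74.7% of its UMIs at 2 h and 79.7% at 4 h, and cells with 10% or more of their UMIs from GFP held 87.3% and 94.1%. In these 126 and 94 cells HSPA6 was at 112.8 and 316.98 CPM. In the other 1354 and 798 cells it had 30 and 28 UMIs, a ratio of 1.47 with an interval from 0.846 to 2.55. Cells with 10% GFP or more made up 8.51% of the 2 h cells and 10.5% of the 4 h cells. HSPA6 has a near-identical copy, HSPA7, so its reads may be split between them.

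The promoters of these genes are shown because each gene belongs to a different signal-driven class with a well-known element near its start. They are the 250 bases before the RefSeq start (GRCh38.p14), with motif matches in capitals: for HSPA6 the heat shock element GAANNTTCNNGAA, for CTGF the TEAD motif GGAATG and for EGR1 the CArG box of serum response factor, all searched on both strands. HSPA6 lies on the plus strand of chromosome 1 (161524290 to 161524539), CTGF on the minus strand of chromosome 6 (131951373 to 131951622) and EGR1 on the plus strand of chromosome 5 (138465229 to 138465478).

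HSPA6: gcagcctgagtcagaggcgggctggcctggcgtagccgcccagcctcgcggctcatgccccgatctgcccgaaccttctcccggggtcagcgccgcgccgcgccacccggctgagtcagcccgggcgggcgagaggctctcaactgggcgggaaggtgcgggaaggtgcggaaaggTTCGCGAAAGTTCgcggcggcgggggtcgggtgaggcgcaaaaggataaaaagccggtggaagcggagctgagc
CTGF: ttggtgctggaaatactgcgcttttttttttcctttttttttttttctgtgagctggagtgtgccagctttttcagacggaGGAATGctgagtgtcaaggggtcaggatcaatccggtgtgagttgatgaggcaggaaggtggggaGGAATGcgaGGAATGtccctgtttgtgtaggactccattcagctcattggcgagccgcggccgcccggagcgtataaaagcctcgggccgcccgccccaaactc
EGR1: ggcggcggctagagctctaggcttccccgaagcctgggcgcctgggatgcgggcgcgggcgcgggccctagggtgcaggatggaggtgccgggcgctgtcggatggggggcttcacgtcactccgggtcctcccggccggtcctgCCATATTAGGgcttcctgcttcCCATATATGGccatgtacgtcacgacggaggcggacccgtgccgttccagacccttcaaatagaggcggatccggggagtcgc

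Of the 7967 genes, 6664 matched a window, among them 17 of the 25 past 1.5-fold. The heat shock element was found in 19 of these windows (0.285%), HSPA6 being 1 of them. The TEAD motif stood in 624 (9.36%), with 3 matches in CTGF, and the CArG box in 70 (1.05%), with 2 matches in EGR1. Of the 7 higher genes with a window, 2 held a TEAD motif, and so did 2 of the 10 lower genes. The full estrogen response element GGTCANNNTGACC was in 1 window of all and in none of the 17. Its GGTCA arm was in 29.9% of all windows, in 3 of the 7 higher genes and in 2 of the 10 lower. Other motifs were also searched. The TATA box (TATAAA) was in 4.74% of all windows, in 4 of the 7 higher genes and in 2 of the 10 lower. The AP-1 motif (TGANTCA) was in 3.41% of all windows, in 1 of the 7 and 0 of the 10. The CRE (TGACGTCA) was in 3.36% and in 0 of either. None of these shares was tested. A match says only that the letters are there.

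The remaining members of these classes were listed from general knowledge. Of 11 immediate-early genes past the minimum, 6 were past the lower threshold higher and 1 lower, with a median change of 0.36. Of all 7967 genes 1.48% were past it higher and 1.58% lower, which also applies to the list counts that follow. JUN was at 74.0 and 105.0 CPM, IER2 at 62.7 and 85.0, KLF6 at 11.8 and 15.9 and CYR61 (CCN1), a relative of CTGF, at 458.9 and 591.0. IER5 was the lower one, at 18.8 and 13.8 CPM. FOS, a partner of JUN, and the orphan receptor NR4A1 stayed under the minimum, with 70 and 67 UMIs and 102 and 82 UMIs. IER3, an early response gene linked to apoptosis control, had 222 and 143 UMIs, a ratio of 1.00 (0.806 to 1.24). Of 7 feedback genes of MAPK signalling, which curb growth factor receptors and ERK, 3 were past the lower threshold: SPRY1 at 67.5 and 94.2 CPM, ERRFI1 at 12.5 and 17.7 and DUSP6 at 11.4 and 15.5. SPRY1 and DUSP6 were higher still at 8 h, at 105.1 and 24.7 CPM. ERRFI1 was at 19.0 CPM there (17.5 to 20.6), an interval that overlaps the one at 4 h (15.9 to 19.8). The change of ERRFI1 was 0.03 in cells under 1% GFP. Of 13 YAP targets 3 were past it higher and 0 lower, with a median of 0.08. ANKRD1 was at 584.2 and 817.1 CPM, and the others were CTGF and CYR61.

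Of 22 heat shock genes and chaperones only HSPA6 was past the lower threshold, and the median was 0.08. HSPB1, a small heat shock protein, was at 846.5 and 1044 CPM and DNAJB1, a cochaperone of HSP70, at 86.5 and 94.8, while HSP90AA1 was at 3219 and 2991 CPM. Within the cells of 10% GFP or more, HSPA1B was at 483.9 CPM at 2 h and 470.8 at 4 h, a ratio of 0.973 (0.879 to 1.08), where HSPA6 had a ratio of 2.81 (2.38 to 3.33). DNAJB1 in the same cells was at 338.9 and 426.7 CPM, a ratio of 1.26 (1.12 to 1.41). In the remaining cells HSPA1B was at 37.0 and 33.2 CPM and DNAJB1 at 69.4 and 67.7. HSPA1A and HSPA1B are near-identical copies and their reads can be exchanged. The part of the GFP load in the HSPA6 result was not tested beyond these values.

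Stress genes of the endoplasmic reticulum and of the integrated stress response were mostly slightly higher. All 15 unfolded protein response genes past the minimum were above 0, with a median of 0.14, but only DNAJB9 passed the lower threshold, from 24.2 to 32.2 CPM. HSPA5, the main chaperone of that compartment, was at 506.1 and 585.6 CPM. Of 20 genes of the integrated stress response, 5 were past it higher and 1 lower, beside 1.48% and 1.58% of all genes. Their median was 0.22. TRIB3, a pseudokinase induced by ATF4, was at 22.4 and 32.8 CPM, PPP1R15A, which returns eIF2 alpha to its active state, at 27.7 and 39.1 and SESN2 at 14.2 and 19.2. CEBPB was the lower one, at 129.3 and 101.2 CPM. GDF15, a stress-induced cytokine of the TGF-beta family, was at 16.3 and 27.5 CPM, a ratio of 1.69 (1.49 to 1.92), and 23.7 at 8 h. Its share of cells was 12.1% (10.4 to 13.97) and 13.9% (11.6 to 16.5), and without the 10 cells of most GDF15 in each pool the change was 0.48.

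Of 40 estrogen targets, 21 were past the minimum, with a median of 0.13. Of these, 4 were at least 1.5-fold higher and 0 lower, beside 0.138% and 0.176% of all genes. At the lower threshold 6 were higher and 1 lower, beside 1.48% and 1.58% of all genes. The targets GREB1, PGR and TFF1 were low in this line. GREB1 had 74 and 59 UMIs, PGR 68 and 52, and TFF1 3 and 0 UMIs, the last allowing up to 0.161 CPM by the limit of 3 counts for a count of 0. Others on the list were at high levels, such as KRT19 at 478.8 and 475.2 CPM and FKBP4 at 245.9 and 254.1. Of those past 1.5-fold, DHRS3, which turns retinaldehyde back into retinol, was at 8.09 and 15.4 CPM, SGK1, a kinase induced by steroid hormones and serum, at 9.37 and 15.003 and KCNK15, a potassium channel subunit, at 8.44 and 13.3. SGK1 was back at 10.1 CPM at 8 h, while DHRS3 and KCNK15 were at 20.2 and 19.4. FHL2, SLC7A5 and G0S2 had smaller changes of 0.36, 0.33 and 0.32. TGFA, a ligand of the EGF receptor, was at 34.2 and 37.6 CPM, a ratio of 1.10 (0.997 to 1.21), and the imprinted gene PEG10 at 637 and 698 CPM. RARA was the lowest target, at 14.3 and 11.0 CPM, and cyclin D1 (CCND1) was at 616.5 and 540.9. ESR1, which encodes the receptor itself, was at 45.4 CPM (43.0 to 47.9) and 35.5 (32.8 to 38.3), and its share of cells was 36.2% and 28.0%. Of 13 receptor cofactors and pioneer factors the median was -0.08, with ESR1 lowest and CITED2, a coactivator, highest at 11.7 and 16.3 CPM.

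**Figure D2:**
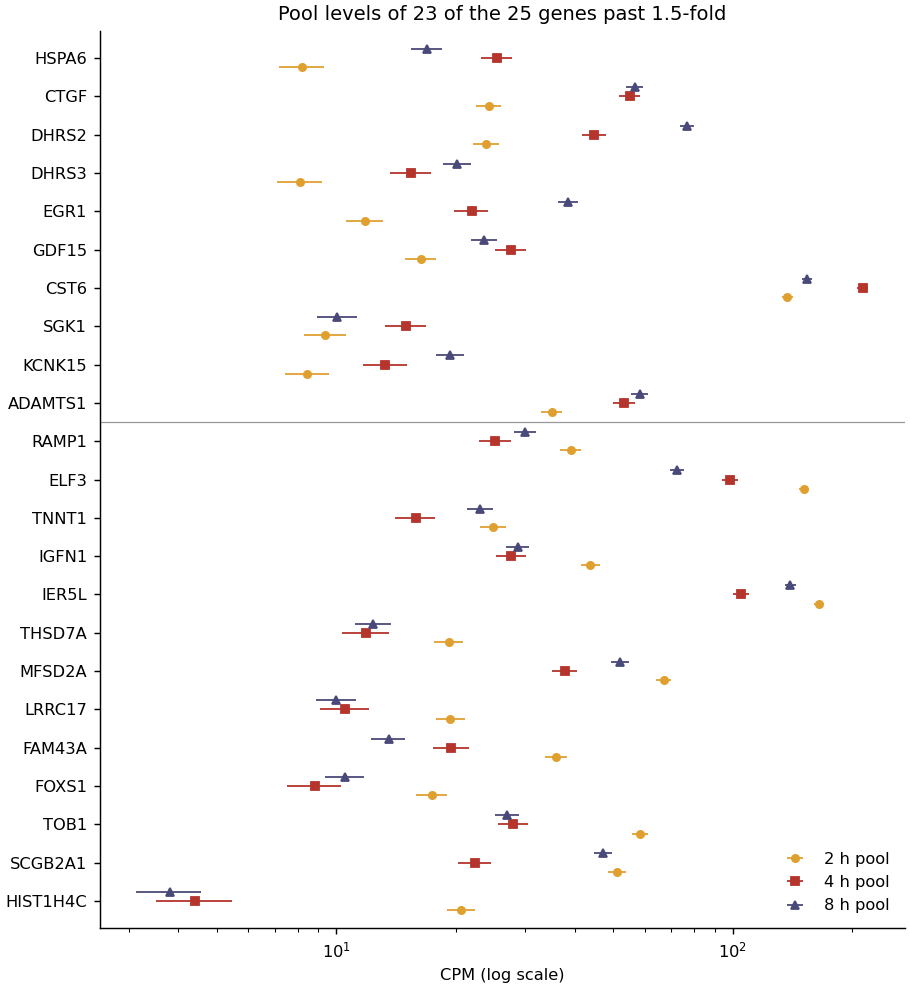
CPM (x axis, log scale) of 23 of the 25 genes past 1.5-fold in the 2 h, 4 h and 8 h pools, with exact 95% Poisson intervals as bars. The 10 genes above the grey line were higher at 4 h and the 13 below it lower, which is how they were chosen; EGR1 went on to 38.4 CPM at 8 h, and SCGB2A1 was at 47.1 CPM there.

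Other higher genes were not on the estrogen target list. CST6, a secreted inhibitor of cysteine proteases, was at 137 CPM (133 to 142) and 213 (206 to 219), with 50.9% and 63.4% of cells holding a UMI, and 154 CPM at 8 h. ADAMTS1, a secreted metalloprotease, was at 34.9 and 53.1 CPM. DHRS2, a short-chain dehydrogenase of the same broad family as DHRS3, was at 23.9 and 44.6 CPM and 76.5 at 8 h. Its share of cells hardly differed, 5.32% (4.17 to 6.67) and 5.50% (4.04 to 7.29), while 10 cells held 61.0% and 66.7% of its UMIs. Without those cells the change was 0.62. In cells under 0.1% GFP DHRS2 had 72 UMIs in 83 cells at 2 h and 2 in 44 cells at 4 h (ratio 0.00598 to 0.188). That interval covers counting error only. A single cell of the 2 h pool held up to 101 DHRS2 UMIs, so these 72 may come from few cells, which were not counted. In the other 3 GFP classes DHRS2 was higher at 4 h, by 1.498, 0.2998 and 1.40 from the lower to the higher GFP share. Of 11 genes of retinoid metabolism 2 were past 1.5-fold higher (DHRS2 and DHRS3) and 2 past the lower threshold lower (RARA among them). The shares over all genes were 0.138% and 1.58%, and the median of the list was -0.10. On the log2(CPM + 1) scale PRICKLE1 (0.57), RASGEF1B (0.55), THBS1 (0.55) and IGFBP7 (0.55) were just short of 1.5-fold higher. As plain ratios of CPM they were at 1.505, 1.51, 1.47 and 1.52. Just past it on that log2 scale were ADAMTS1 (0.59) and KCNK15 (0.60). ADAMTS1 fell short of 1.5-fold under 8 of 12 other settings, KCNK15 under 4, with its lowest change of 0.40 over every called cell, and GDF15 under 2, with 0.38 over every called cell. In cells with no TOP2A or MKI67 UMI, 477 at 2 h and 247 at 4 h, the change was 0.37 for DHRS3 and 0.33 for DHRS2, the latter from 17 and 13 UMIs with an interval of the ratio from 0.615 to 3.01.

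After HIST1H4C, the lowest change was that of SCGB2A1, a secretoglobin secreted by glandular epithelium. It had 51.1 CPM at 2 h (48.5 to 53.7) and 22.4 at 4 h (20.3 to 24.6), a ratio of 0.438 (0.392 to 0.489), and 47.1 CPM at 8 h. The share of cells was 22.5% (20.3 to 24.8) and 15.9% (13.5 to 18.6), and 9 cells at 2 h and 0 at 4 h held 20 or more of its UMIs. The change of SCGB2A1 was -0.17 in cells under 0.1% GFP, with an interval of the ratio from 0.615 to 1.27. It was -1.08 at 0.1 to 1%, -1.55 at 1 to 10% and -1.85 at 10% or more, so it was larger with a higher GFP share. The part of GFP in this was not tested. TOB1, which recruits the deadenylase complex and restrains proliferation, was at 58.4 CPM (55.7 to 61.3) and 28.0 (25.6 to 30.5), and stayed at 27.0 at 8 h. Its share was 40.7% (38.0 to 43.4) and 23.8% (21.0 to 26.9). By GFP share, TOB1 was at 49.6 and 40.1 CPM in cells under 0.1%, at 61.6 and 23.4 in those with 0.1 to 1%, at 57.6 and 31.2 in those with 1 to 10% and at 42.0 and 41.3 in those with 10% or more. The intervals of the ratio include 1 in the lowest and the highest of these classes, and the part of GFP was again not tested.

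Lower transcription factors included ELF3, an ETS factor of epithelia, at 151 and 98.5 CPM and the forkhead factor FOXS1 at 17.4 and 8.82. ELF3 had a further lower level of 72.4 CPM at 8 h, while FOXS1 was at 10.5. By GFP share the change of FOXS1 was -0.85 under 0.1%, -1.14 at 0.1 to 1%, -0.72 at 1 to 10% and 0.83 at 10% or more. The last rests on 11 and 16 UMIs, and the intervals of the ratio in the lowest and the highest class include 1. IER5L, related to the immediate-early gene IER5, was at 165 and 105 CPM and 140 at 8 h. The share of cells went from 72.6% to 59.3% for IER5L and from 70.8% to 56.1% for ELF3, with intervals that do not overlap. MFSD2A, a transporter of lysophospholipids, was at 66.9 and 37.7 CPM and RAMP1, a partner of the calcitonin gene-related peptide receptor, at 39.0 and 25.2. FAM43A was at 35.9 and 19.5 CPM, LRRC17 at 19.4 and 10.5, THSD7A at 19.2 and 11.9, IGFN1 at 43.7 and 27.6 and the slow muscle troponin TNNT1 at 24.9 and 15.9. TNNT1 was at 23.0 CPM at 8 h, and FAM43A at 13.6. IGFN1 fell short of 1.5-fold under 5 of 12 other settings, with a change of -0.08 in cells with no TOP2A or MKI67 UMI. Its change was -2.62 in cells under 0.1% GFP, -0.87 at 0.1 to 1%, -0.06 at 1 to 10% and 0.20 at 10% or more. The first of these rests on 133 and 11 UMIs. A single cell of the 2 h pool held up to 90 IGFN1 UMIs, so few cells may carry it. RAMP1 fell short under 4 of the settings, TNNT1 under 3, IER5L and ELF3 under 2 each and THSD7A under 1. Just short of the threshold on the log2(CPM + 1) scale were TMTC1 (-0.58), RBP2 (-0.58) and LEFTY2 (-0.57), the last a TGF-beta family inhibitor known from endometrium. The plain ratio of TMTC1 was 0.660, which is past 1.5-fold lower.

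**Figure D3:**
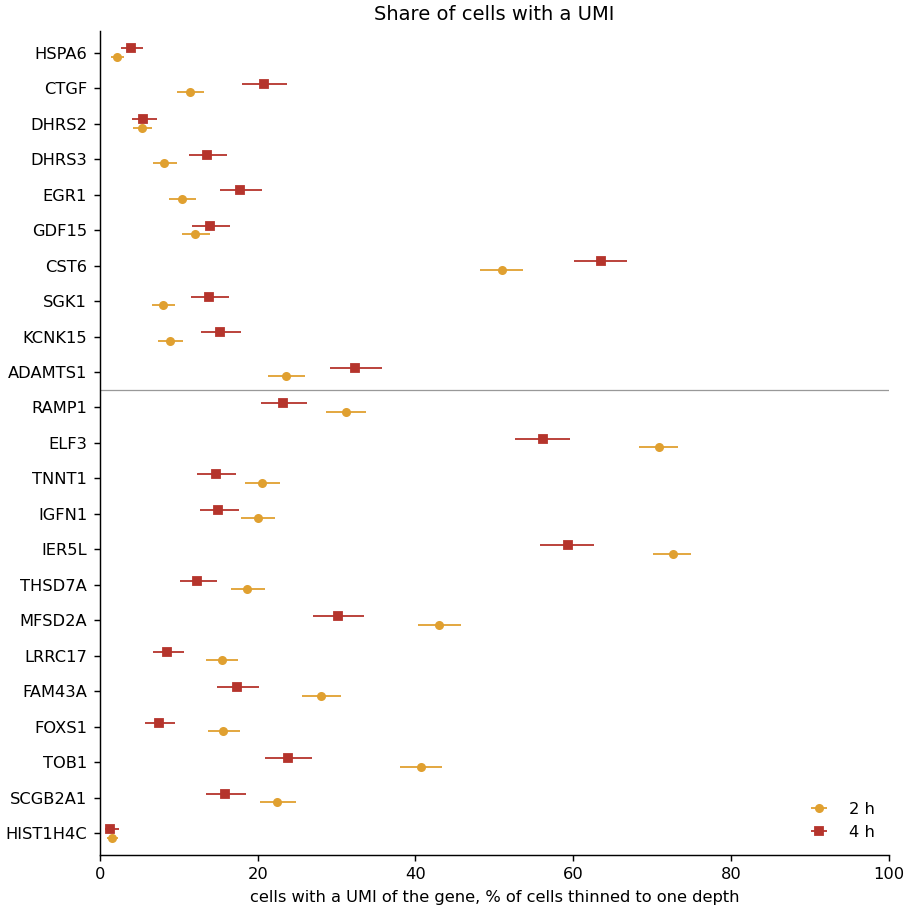
Share of cells with at least 1 UMI of each of 23 of the 25 genes (x axis, percent of cells thinned to 11833 UMIs), at 2 h (circles, 1316 cells) and 4 h (squares, 818 cells), with exact 95% binomial intervals. DHRS2 and HIST1H4C have nearly the same share at both times, while TOB1 goes from 40.7% to 23.8%.

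HIST1H4C had the lowest change, -2.00, from 20.7 CPM (598 UMIs) to 4.41 (82 UMIs), with 3.80 CPM at 8 h. Most of its UMIs were in few cells: 6 of 1480 cells at 2 h held 519 of the 598 UMIs, with up to 171 in a cell, and 1 of 892 cells at 4 h held 50 of 82. The other cells held 79 and 32 UMIs, and without the 10 cells of most HIST1H4C in each pool the change was -0.85. Those 10 cells held 93.8% of its UMIs at 2 h and 93.9% at 4 h. That change therefore rests on few UMIs, with levels under the minimum of 10 CPM, where the added 1 CPM weighs heavily. The 10 cells were also a larger share of the 892 cells than of the 1480. In cells under 0.1% GFP there were 52 UMIs in 83 cells at 2 h and 52 in 44 cells at 4 h (ratio 1.21 to 2.71). The classes of higher GFP share held 19, 11 and 0 UMIs at 4 h. The cell with 50 UMIs therefore lay in the class under 0.1%, and its higher level there rests on that cell. The share of cells with a UMI was 1.52% (0.931 to 2.34) and 1.34% (0.673 to 2.39). The cells with 20 or more of its UMIs held 0 UMIs of the breast markers GATA3, PIP and SCGB2A2, and their median total was 26283 UMIs at 2 h. Genes for histone H4 encode nearly the same protein, and most of their transcripts lack a poly(A) tail. Of 16 histone genes past the minimum, 14 were below 0 and the median was -0.17, but only HIST1H4C and HIST1H3B, at 26.4 and 20.7 CPM, were past the lower threshold.

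Of 16 endometrial and Mullerian epithelial markers past the minimum, 13 were below 0, with a median of -0.20. Past the lower threshold 5 were lower and 0 higher, beside 1.58% and 1.48% of all genes. SCGB2A1 and ESR1 were among the 5, with EMX2, PAX8 and the secreted WFDC2 (413.3 and 329.1 CPM). HOXA10 was highest, at 53.9 and 59.7 CPM. KRT8 and KRT18, the paired keratins of simple epithelium, were at 1826 and 1605 and at 2095 and 1730 CPM. The 4 metallothionein and zinc transport genes past the minimum were all below 0, with a median of -0.24 and MT2A at 477.1 and 397.6 CPM. The 2 stromal markers past the minimum, ACTA2 and COL1A1, were both below 0, and the summed level of all 10 was 152.8 and 135.9 CPM.

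G2 and mitosis genes were mostly slightly lower at 4 h, and S phase genes differed little. Of 50 genes of G2 and mitosis, 43 were below 0, 7 were past the lower threshold lower, beside 1.58% of all genes, and 0 higher, with a median of -0.16. Over every called cell the median was -0.05. TOP2A, the topoisomerase of dividing cells, was at 160 CPM (156 to 165) and 130 (125 to 135), and MKI67, the Ki-67 antigen, at 184 (179 to 189) and 168 (162 to 174). NUF2, of the kinetochore, was lowest at 35.5 and 26.5 CPM. The share of cells with a UMI of either TOP2A or MKI67 was not lower: it was 62.3% (59.6 to 64.9) at 2 h and 64.2% (60.8 to 67.5) at 4 h, and 67.8% and 72.3% without thinning. In those cells the 48 other members had a median of -0.24 and 46 of them were below 0. In cells with neither the median was 0.05, with 28 above 0. Of 44 S phase genes 0 were past the lower threshold either way and the median was 0.05, with CCNE2 highest (0.29) and RRM2 lowest (-0.21).

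Ribosome biogenesis genes, which build the nucleolar machinery, had a median of 0.10 with 39 of 44 above 0 and 0 past the lower threshold. RRP12 was the highest (0.29) and BOP1 the lowest (-0.12). The 36 ribosomal protein genes had a median of -0.01. Cholesterol synthesis (23 genes, median -0.02), the nuclear-encoded respiratory chain (44 genes, -0.01) and 11 interferon-stimulated genes (0.01) lay near the median of all genes. The other lists with 3 or more members past the minimum had medians from -0.06 (growth factor ligands and receptors) to 0.09 (targets of NRF2, a factor of the oxidative stress response). The mitochondrially encoded genes made up 4.41% of pool UMIs at 2 h and 4.15% at 4 h.

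**Figure D4:**
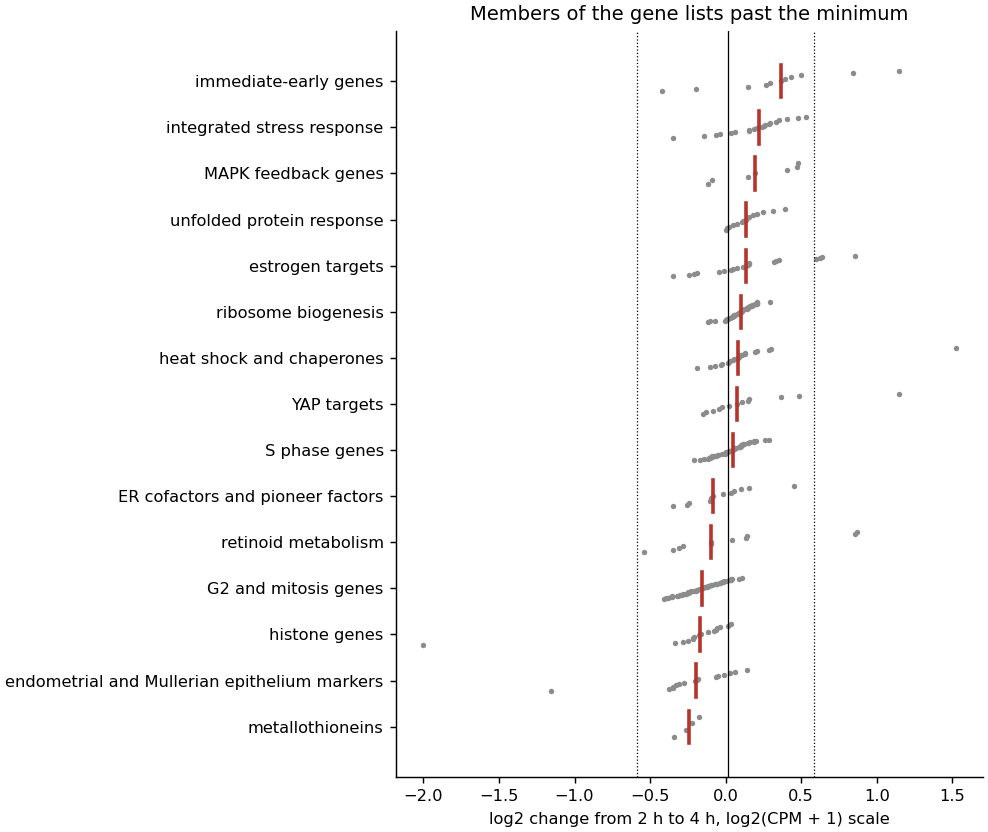
Change from 2 h to 4 h (x axis, log2(CPM + 1) scale) of every member past the minimum in 15 gene lists, 1 grey point per gene, with the list median as a red bar. The black line is the median of all 7967 genes (0.02) and the dotted lines mark 1.5-fold; medians run from -0.24 for metallothioneins to 0.36 for immediate-early genes.

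EGR1, DHRS2, DHRS3 and KCNK15 were higher at 8 h than at 4 h, as their values above show. For SGK1, SCGB2A1 and TNNT1 the intervals at 2 h and 8 h overlap. The genes were chosen on the 2 h and 4 h pools, so a level at 8 h read against either of them shares a pool with that choice and is no separate check of the step.

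In T-47D the same step gave 8 genes at least 1.5-fold higher (0.108% of 7408) and 15 lower (0.202%), and 56 (0.756%) and 98 (1.32%) past the lower threshold. Across 6419 genes past the minimum in both lines, the changes had a Pearson r of 0.09 and a Spearman rho of 0.06, given as a description over genes, which are not replicates. Of the 14 genes lower in Ishikawa 6 passed the minimum in T-47D. IER5L was lower in both lines, at 41.4 and 26.7 CPM in T-47D. ELF3 was at 61.5 and 43.4 CPM there, TOB1 at 224.6 and 194.2, and HIST1H4C at 307.6 and 306.8. The immediate-early median was -0.16 in T-47D and 0.36 in Ishikawa, the G2 and mitosis median 0.06 and -0.16, and the ribosome biogenesis median 0.11 and 0.10. Each median is over the members past the minimum in that line, so the genes differ. For G2 and mitosis these were 39 in T-47D and 50 in Ishikawa. Among immediate-early genes CTGF and EGR1 entered only in Ishikawa, and IER3 and FOSL2 only in T-47D. With 1 culture each, these differences between the lines were not tested.

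**Figure D5:**
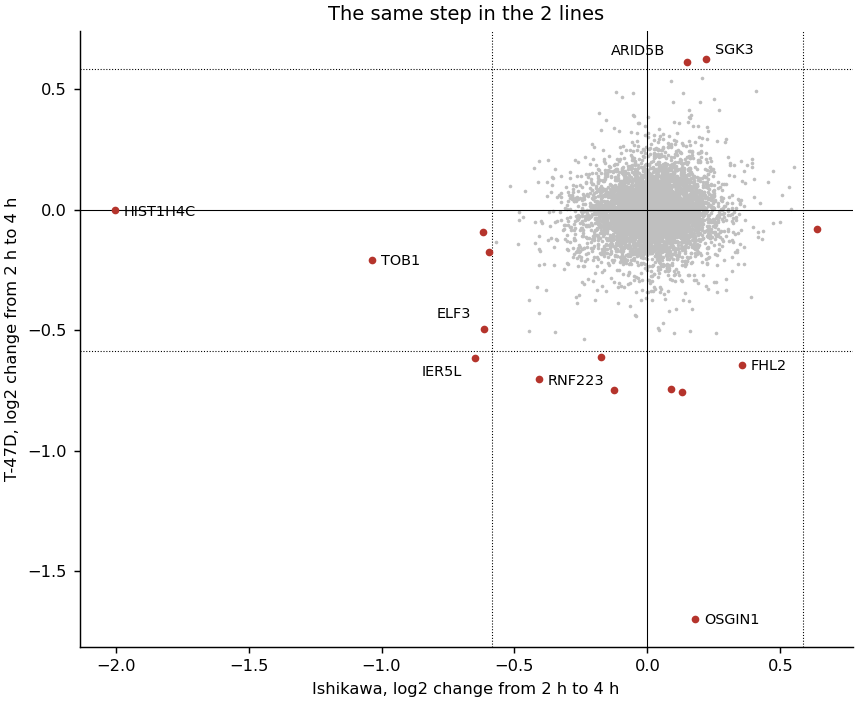
Change from 2 h to 4 h in Ishikawa (x axis) and T-47D (y axis), log2(CPM + 1) scale, for 6419 genes past the minimum in both lines. Red points passed 1.5-fold in either line and dotted lines mark that fold; IER5L is the 1 gene past it in both, and OSGIN1, lower in T-47D, was at 20.5 and 23.3 CPM in Ishikawa.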

How the data were processed

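Single-cell RNA sequencing (10x 3′ chemistry with MULTI-seq tags) was read from the deposited matrices, which hold raw UMI counts per gene and cell barcode. The submitters' processing notes name Cell Ranger 3.1.0 and hg38 for these counts. The authors called time points from the tags with the demultiplex package. Barcodes with more than 1 tag were left out as doublets. Pairs of cells from the same culture carry 1 tag and were not removed, and no further doublet caller was run. The library holds 1 cell line, so no cell type that should lack a gene was at hand to measure free RNA. 80 barcodes occurred in both lines' matrices, 2 of them in kept 2 h and 4 h cells.

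UMIs were summed per culture over kept cells, without the GFP and tdTomato features, and scaled to CPM. Changes are log2((CPM 4 h + 1)/(CPM 2 h + 1)), which understates low genes. Genes needed a mean of 10 CPM. T-47D cells were kept with 7500 to 40000 UMIs, with 1500 to 6000 detected genes and with a mitochondrial share under 20%. Thinning drew UMIs at random to the 10th percentile of kept cells. Python 3.11.15, numpy 2.4.6, scipy 1.17.1, pandas 2.3.3 and, for TMM factors only, edgeR 4.0.16 in R 4.3.3 were used, and the fold and interval code was tested on simulated data. The intervals cover counting error only, and n is 1 culture per time point.

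The members and the 40 gene lists were chosen with earlier results of these data known. Genes named are the 15 highest and 15 lowest changes whose ratio interval leaves out 1, each list's top and bottom member, and 13 genes whatever their values. Other list members, the genes near the 1.5-fold threshold and VIM were named after their values were seen. A few genes are not reported here.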

Additional observations from a re-analysis of the deposited data

Results flagged for a closer look

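FHL2, a LIM domain protein, went opposite ways in the lines. It was at 37.0 CPM at 2 h and 47.6 at 4 h in Ishikawa, a change of 0.36 with an interval of the ratio from 1.18 to 1.41. In T-47D it was at 50.1 and 31.7 CPM, a change of -0.64 with an interval from 0.582 to 0.689. With a single culture behind each pool, this difference was not tested.

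The reporter features, left out of all comparisons, carried signal. GFP was at 31688 CPM of the Ishikawa 2 h pool and 39547 CPM of the 4 h pool, and tdTomato had 1643 and 1098 UMIs. The median share of GFP per cell was 0.514% and 0.583%.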

How the results depend on the processing

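With 1 culture per time point every value rests on 1 pool a side and there was no replicate to leave out. No paired analysis was possible because the labels give no replicate numbers and no test was run. The median change over all genes stayed under 0.04 in every scaling and choice of cells.

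Of the 25 genes past 1.5-fold, 9 stayed past it under all 12 alternatives run for genes, 2 of them higher (CTGF and EGR1) and 7 lower. HIST1H4C was 1 of the 7, but its smallest change, -0.717 in cells lacking TOP2A and MKI67 UMIs, rests on few UMIs. These were 11 at 2 h and 2 at 4 h, or 1.39 and 0.456 CPM, under the minimum of 10 CPM. The interval of that ratio, 0.0352 to 1.499, includes 1. Of the 25 genes, 24 kept their sign. HSPA6 was the exception, at -0.035 in cells under 1% GFP. The 11 higher genes became 75 and the 14 lower 59 in cells lacking TOP2A and MKI67 UMIs, a smaller pool. They became 54 and 92 with no minimum CPM, 2 and 3 with a minimum of 50 CPM, 118 and 126 at the lower threshold of 0.32 and 2 and 3 at 2-fold. The lower genes numbered 9 with a pseudocount of 5 and 24 in cells under 1% GFP, 12 of them among the 14. Without the 10 cells of most UMIs of each gene, an alternative added after seeing the data, there were 6 higher and 23 lower. That alternative took the same number of cells from pools of 1480 and 892 and kept the pool totals. By construction this lowers 4 h levels more than 2 h levels, also in the changes of GDF15, DHRS2 and HIST1H4C given without those cells. The median over all genes was -0.011 under it and 0.018 in the main setting. The fold and minimum alternatives also change the count by construction. The causes of the other shifts were not tested.

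The immediate-early median was 0.31 with a pseudocount of 5, 0.49 in cells lacking TOP2A and MKI67 UMIs and 0.28 with no minimum, and the estrogen target median 0.073 with no minimum. The G2 and mitosis median was -0.047 over every called cell, -0.11 as a mean over cells and 0.049, reversed, in cells lacking TOP2A and MKI67 UMIs, which were chosen by 2 of its genes. The heat shock median was 0.11 as a mean over cells, 0.12 in cells lacking TOP2A and MKI67 UMIs and 0.048 with a minimum of 50 CPM. The S phase median was 0.0100 in cells under 1% GFP, 0.0082 in cells lacking TOP2A and MKI67 UMIs and 0.0030 with a minimum of 50 CPM. The ribosome biogenesis median was 0.080 under the lower UMI limit.

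Over every called cell the median of mitochondrially encoded genes turned to 0.029 and that of retinoid metabolism to 0.070. In cells under 1% GFP the ribosomal protein median turned to 0.013. The median of growth factor ligands and receptors turned to 0.016 in cells lacking TOP2A and MKI67 UMIs and to 0.0021 with no minimum.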

Other observations

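VIM, the intermediate filament of mesenchymal cells, had 15 UMIs at 2 h, 73 at 4 h and 131 at 8 h. A single cell held 57 of the 73 and another held 125 of the 131, while the next cells held 6 and 1.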
